A study of Mus musculus with 9 samples.

Results

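Among the 15657 lncRNA transcripts listed for the mouse trigeminal ganglion (TG), 146 carried names that start with MSTRG, the form in which a transcript assembler names models that it builds from reads. These 146 predicted lncRNAs are described here, chosen by their names alone, and the other 15511 transcripts carried the identifiers of annotated lncRNAs. Male wild-type C57BL/6 mice of 8 weeks received 10 µl of saline or of complete Freund's adjuvant (CFA, 5 mg/ml, an emulsion that causes inflammation) in the temporomandibular joint (TMJ) on 1 side. TG of the injected mice were collected on day 3 after saline (saline replicates 1 to 3), on day 3 after CFA (CFA3D replicates 1 to 3) and on day 6 after CFA (CFA6D replicates 4 to 6). Each of the 9 libraries pooled tissue of 3 mice, and no saline library of day 6 was analysed here, so CFA6D was compared with saline of day 3. All values are FPKM, in which the fragments of a transcript are divided by its length and by the depth of the library.

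Long noncoding RNAs are transcripts without a recognised protein product. Many lie in the nucleus, and some act on chromatin, on splicing or on the stability of other RNAs, while for most no function is known. An assembled transcript is a computed model. Exons that several models share receive reads that the quantification must divide among them, so the level of a locus and the levels of its single models are different quantities. The predicted lncRNAs had been screened for coding potential with several programs by the study. Their lengths, exons, strands and sequences were not available to this description and none is shown.

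The depth by which FPKM was divided was about 30 M to 42.2 M read pairs per library, as estimated from the steps of low values. This counts the pairs behind the FPKM values and not all pairs sequenced. A single read pair on 1 kb of transcript then corresponds to 0.0237 to 0.0333 FPKM, but the reads behind a predicted lncRNA remain unknown without its length. All markers listed for sensory neurons (9 of 9), satellite glia (4 of 4) and Schwann cells (4 of 4) had a mean above 1 FPKM. Other tissues differed between libraries. The summed pituitary markers ranged from 8.89 to 10611 FPKM with the highest value in saline replicate 3, and the summed neutrophil markers ranged from 21 to 2420 FPKM with the highest value in CFA6D replicate 6. By group, the neutrophil sums were 44.3 to 101 FPKM in saline, 21 to 63.3 FPKM on CFA3D and 109 to 2420 FPKM on CFA6D, so that CFA6D lay above both other groups. The sums of the satellite glia markers were 427 to 563 FPKM in saline, 464 to 503 FPKM on CFA3D and 266 to 426 FPKM on CFA6D, below both other groups and lowest in CFA6D replicate 4. The summed skeletal muscle and fat markers were highest in saline replicate 2, at 119 and 42.3 FPKM. The pituitary sums were 8.89 to 10611 FPKM in saline, 14.2 to 20.7 FPKM on CFA3D and 43.0 to 1114 FPKM on CFA6D. CFA6D thus lay above CFA3D, and the range of saline covered both. The bone sums were 48.5 to 56.8 FPKM in saline, 27.1 to 61.9 FPKM on CFA3D and 33.0 to 201 FPKM on CFA6D, highest in CFA6D replicate 6. The part of these tissues in the results below was not tested beyond leaving out libraries.

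The 146 predicted lncRNAs belonged to 106 loci, as given by the number in the name. Of these loci, 89 had 1 predicted transcript and 17 had several, which together held 57 transcripts. The richest was MSTRG.1727 with 11 transcripts, and MSTRG.3158 had 6 and MSTRG.6175 had 5. MSTRG.10070, MSTRG.1991, MSTRG.3589, MSTRG.4301, MSTRG.6376, MSTRG.8767 and MSTRG.9521 had 3 each. The lncRNA table was in genome order, with 6 of 15349 consecutive pairs of annotated transcripts out of order. The annotated transcripts before and after a predicted locus therefore bracket it, and 103 of the 106 loci lay between transcripts of the same chromosome, on 21 chromosomes, in intervals with a median of 497 kb. Chromosomes 4 and 2 held 12 and 11 loci. These intervals follow from the order of the table (positions of GENCODE mouse release M21, GRCm38) and were not measured.

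The predicted lncRNAs were detected in more libraries than the annotated ones, at higher levels. Of the 146, 99 (67.8%) were above 0 in all 9 libraries, against 5354 of 15511 annotated transcripts (34.5%). No predicted lncRNA was at 0 throughout, whereas 29.4% of the annotated transcripts were. A mean of at least 1 FPKM was reached by 115 predicted lncRNAs (78.8%) and by 7.09% of the annotated transcripts. Among those tested, which had to average 0.1 FPKM or more, the median was 2.17 FPKM for 143 predicted and 0.418 FPKM for 5529 annotated lncRNAs. These shares are descriptions, because a model assembled from reads has reads by construction.

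At the other end, 10 predicted lncRNAs were above 0 in 1 library only, and 18 in 2 to 5 libraries. Among the 10, 4 belonged to MSTRG.1727 and are described with that locus. MSTRG.3448.1 was listed at 2.43 FPKM in saline replicate 1, MSTRG.6376.2 at 4.93 FPKM in saline replicate 3, and MSTRG.9521.3 at 5.31 FPKM in CFA3D replicate 3. MSTRG.6175.2 and MSTRG.6175.3 were seen in saline replicate 2 at 0.491 and 1.38 FPKM, and MSTRG.4301.3 in CFA6D replicate 4 at 0.122 FPKM. The 3 predicted lncRNAs under the mean of 0.1 FPKM were MSTRG.6175.2, MSTRG.4301.3 and MSTRG.1727.2, whose highest value was 0.387 FPKM in CFA3D replicate 2.

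The highest level of any lncRNA was that of MSTRG.2605.1 in 1 library. It was listed at 62081 FPKM in CFA6D replicate 4. In saline it was at 289, 18.3 and 26.2 FPKM, on CFA3D at 274, 12.6 and 259 FPKM, and in CFA6D replicates 5 and 6 at 188 and 108 FPKM. The groups overlapped both with and without that library. Within saline and CFA3D the libraries split into values of at least 259 FPKM and of at most 26.2 FPKM. The difference of CFA6D from saline was 4.38 on the log2(FPKM + 0.1) scale (SE 2.31, limma, adjusted p = 0.796) and was not called.

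MSTRG.2605.1 carried the raised lncRNA total of CFA6D replicate 4. The FPKM of all lncRNAs summed to 70257 in that library and to 8151 to 8911 in the other 8, with a median of 8571. MSTRG.2605.1 alone made up 88.4% of the sum in CFA6D replicate 4, against 0.143% to 3.24% elsewhere. Without it the sum was 8176, within the 8075 to 8806 of the other libraries. Its excess over the median of the other libraries, 61933 FPKM, equalled 100.4% of the excess of the total, since the remaining lncRNAs together lay slightly below their median. The next predicted lncRNAs, MSTRG.3613.2 and MSTRG.1727.9, carried 0.115% and 0.0816% of it, at 70.8 and 50.3 FPKM, followed by MSTRG.1727.5 (8.95 FPKM) and MSTRG.1727.6 (6.29 FPKM). Malat1, an abundant nuclear lncRNA and the annotated transcript with the largest excess, carried 0.124%.

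**Figure D1:**
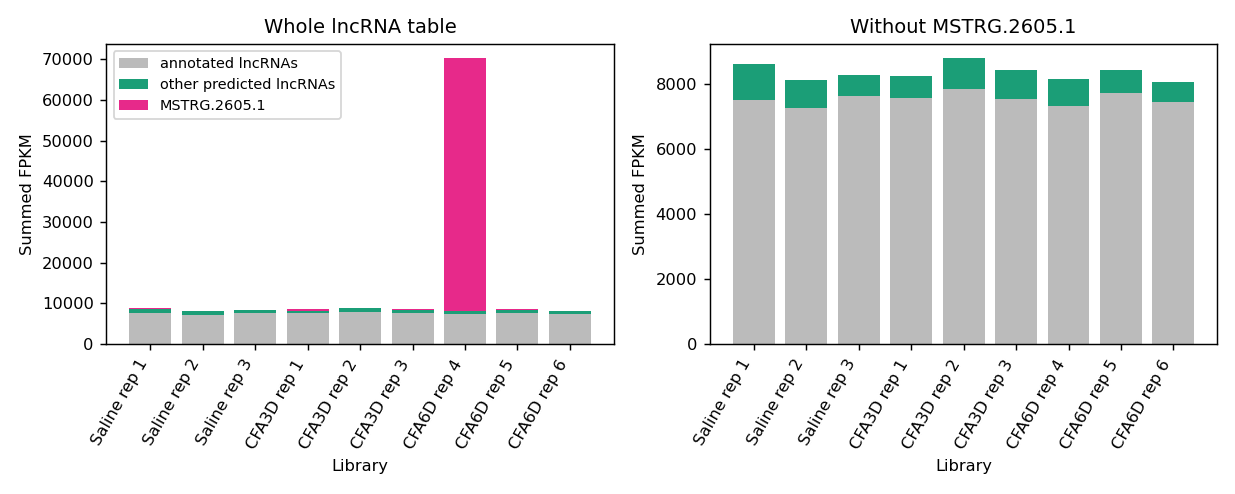
Summed FPKM of the lncRNA table in each of the 9 libraries (bars, stacked by annotated lncRNAs, the other predicted lncRNAs and MSTRG.2605.1), with all transcripts on the left and without MSTRG.2605.1 on the right. The bar of CFA6D replicate 4 reaches 70257 on the left and 8176 on the right, where the other libraries lie between 8075 and 8806.

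The same single transcript set the share of the predicted lncRNAs. They made up 89.5% of the lncRNA total in CFA6D replicate 4 and 8.11% to 15.5% elsewhere, and without MSTRG.2605.1 10.2% against 7.65% to 12.6%. The mRNA total of CFA6D replicate 4, 237756 FPKM, lay within the 229889 to 248265 of the other libraries. The table of other noncoding RNAs summed to 757382 FPKM there, below the 793311 of the lowest other library.

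By the order of the table, MSTRG.2605.1 lay between 69267771 and 69371835 on chromosome 12 (GRCm38). This interval holds Rn7s2, a copy of the RNA of the signal recognition particle (chromosome 12, 69361182 to 69361481, minus strand), and the annotated small RNA Gm47299, which overlaps Rn7s2 on the same strand. Klhdc1, Klhdc2 and Nemf were also above 1 FPKM in this interval and were not examined. Rn7s2 and Gm47299 were looked up after the values were seen. Rn7s2 and its neighbour Rn7s1 were 100% identical over 300 bases in GENCODE, so reads cannot tell them apart. The ratio of Rn7s2 to Rn7s1 was 0.757 in CFA6D replicate 4 and 0.842 to 0.856 in the other 8 libraries. As reads of Rn7s1 and Rn7s2 cannot be told apart, this ratio rests on how the quantification divided them. Gm47299 was listed at 174980, 4.39 and 217346 FPKM in saline, at 192550, 174454 and 195666 FPKM on CFA3D, and at 2.28, 187463 and 3.20 FPKM on CFA6D. It was thus high in all CFA3D libraries and near 0 in saline replicate 2 and CFA6D replicates 4 and 6. Whether MSTRG.2605.1 shares reads with these RNAs was not tested.

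MSTRG.3613.2 was the second most abundant and was split in a like manner. It was at 421, 293 and 24.3 FPKM in saline, at 17.5, 290 and 244 FPKM on CFA3D, and at 205, 14.3 and 17.5 FPKM on CFA6D. Values above 200 FPKM and below 25 FPKM occurred in every group. It was not called in any comparison (CFA6D against saline -1.95, SE 1.46, limma, adjusted p = 0.866). Its interval on chromosome 14 (49722652 to 50870324) holds Rpph1, the RNA of ribonuclease P, whose level did not follow it (Pearson r = -0.0407, exact permutation p = 0.912 over 9 libraries). Armh4, Parp2, Tep1 and Ttc5 were also above 1 FPKM in this interval and were not compared with MSTRG.3613.2.

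Of the 10 predicted lncRNAs with the highest means, MSTRG.3589.2, MSTRG.3589.1 and MSTRG.1727.5 varied least, with an SD within groups of 0.0603, 0.127 and 0.164 on the log2(FPKM + 0.1) scale. MSTRG.1727.5 was at 104, 97.6 and 82.5 FPKM in saline, at 107, 84.8 and 102 FPKM on CFA3D, and at 101, 84.0 and 85.6 FPKM on CFA6D. MSTRG.3589.1 ranged from 54.6 to 70.1 FPKM and MSTRG.3589.2 from 24.3 to 26.8 FPKM over the 9 libraries, with all groups overlapping. MSTRG.1727.6 ranged from 29.1 to 49.9 FPKM (SD 0.251) and MSTRG.1727.7 from 13.1 to 30.9 FPKM (SD 0.353), with all CFA6D values of the latter below its saline values and no call. MSTRG.8604.1 was listed at 0 in saline replicate 1 and at 17.3 to 31.2 FPKM in the other 8 libraries. MSTRG.231.1 was at 21.2, 0.644 and 8.67 FPKM in saline, at 10.5, 15.1 and 15.9 FPKM on CFA3D and at 9.05, 0.515 and 8.27 FPKM on CFA6D. Its CFA3D values lay above all CFA6D values, with a difference of -1.92 (CFA6D minus CFA3D, SE 1.28, limma, adjusted p = 0.950) that was not called.

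MSTRG.1727 showed the clearest contrast between a locus and its transcripts. The sum of its 11 transcripts was 238, 218 and 217 FPKM in saline, 209, 184 and 259 FPKM on CFA3D, and 223, 196 and 187 FPKM on CFA6D. These sums varied by 1.41 times between the highest and the lowest library, and the groups overlapped. MSTRG.1727.5, MSTRG.1727.6 and MSTRG.1727.7 together gave 126 to 178 FPKM in every library. The remainder was carried by different transcripts from library to library. MSTRG.1727.8 was present only in saline replicate 3 (60.6 FPKM), MSTRG.1727.11 only in CFA3D replicate 3 (55.4 FPKM), MSTRG.1727.9 only in CFA6D replicate 4 (50.3 FPKM) and MSTRG.1727.10 only in CFA6D replicate 5 (49.2 FPKM). With MSTRG.2605.1, these 4 had the largest ratios of the highest library to the median of the others after 0.1 FPKM was added to each, an order that depends on the added value since the median of these 4 was 0. In the libraries without these 4, MSTRG.1727.1, MSTRG.1727.3 and MSTRG.1727.4 carried the remainder, but they were not confined to those libraries. MSTRG.1727.1 was at 19.6 FPKM in CFA3D replicate 3 and 17.5 FPKM in CFA6D replicate 5, beside 18.1 FPKM in CFA3D replicate 2. MSTRG.1727.3 was at 12.7 FPKM in saline replicate 3. MSTRG.1727.1 reached 50.3 FPKM in saline replicate 2, 43.5 FPKM in CFA3D replicate 1 and 42.7 FPKM in CFA6D replicate 6, and was at 0 in saline replicate 3. MSTRG.1727.3 reached 35.1 FPKM in saline replicate 1. Summed together, MSTRG.1727.1, MSTRG.1727.3, MSTRG.1727.4, MSTRG.1727.8, MSTRG.1727.9, MSTRG.1727.10 and MSTRG.1727.11 gave 42.8 to 80.7 FPKM, with every library contributing.

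**Figure D2:**
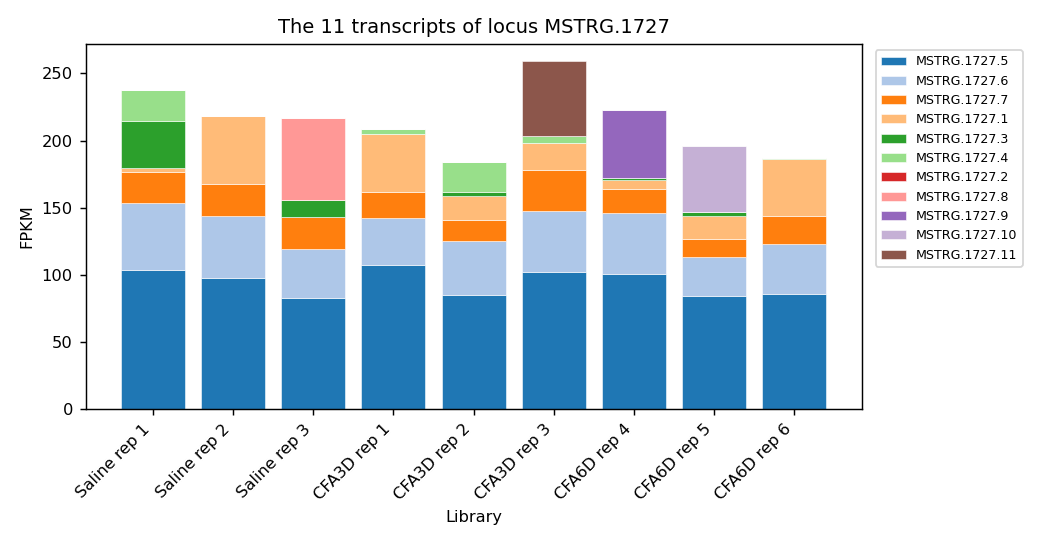
FPKM of the 11 transcripts of locus MSTRG.1727 (stacked colours) in each of the 9 libraries. The lower 3 layers give 126 to 178 FPKM in every library, while MSTRG.1727.8, MSTRG.1727.9, MSTRG.1727.10 and MSTRG.1727.11 appear in 1 library each.

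The sums of the locus followed those of a neighbouring gene. The interval of MSTRG.1727 (chromosome 11, 62550047 to 62564477) spanned 14.4 kb and contained a single gene above 1 FPKM, Ubb, which encodes polyubiquitin and was at 494 to 590 FPKM. Over the 9 libraries the locus sum and Ubb had a Pearson r of 0.872 (exact permutation, adjusted p = 0.00334) and a Spearman rho of 0.917 (exact permutation, adjusted p = 0.00197), and r was 0.688 without the 2 libraries farthest from the median of Ubb. The sum of MSTRG.3589, 86.4 to 102 FPKM, followed Gm1821, an annotated noncoding gene within its interval on chromosome 14 (45944000 to 46387519), with r = 0.893 (exact permutation, adjusted p = 0.00334), rho = 0.950 (exact permutation, adjusted p = 0.00106) and r = 0.815 without 2 libraries. Bmp4 was also above 1 FPKM in the interval of MSTRG.3589 and was not compared with this locus. The annotated transcripts of Gm1821 aligned with Ubb at 97.7% identity over 617 bases and 98.5% over 685 bases, so reads of Ubb and Gm1821 may be hard to separate. Whether the predicted loci share reads with either was not tested. The genes were chosen after the values were seen, among 3 pairs, with Rpph1 as the third.

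**Figure D3:**
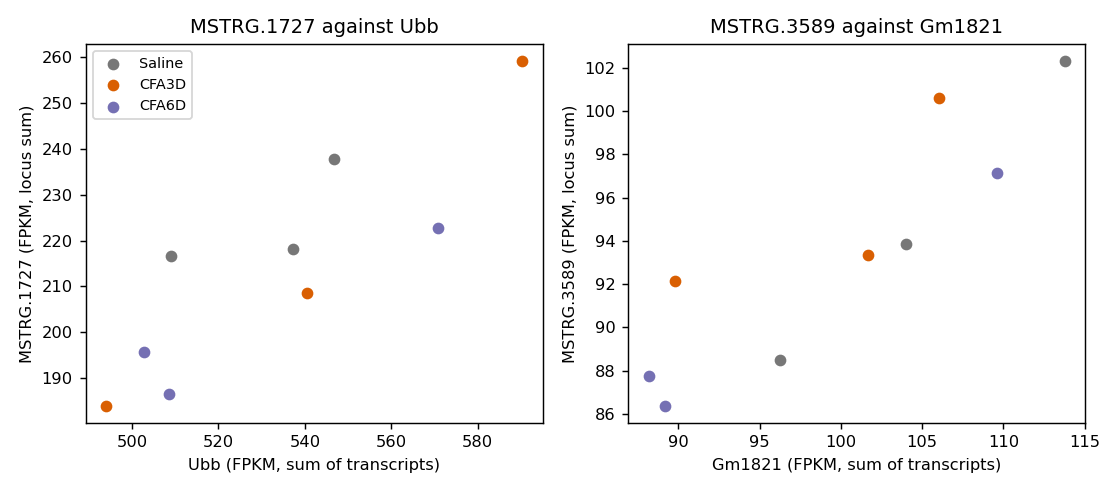
Locus sums of MSTRG.1727 against Ubb (left) and of MSTRG.3589 against Gm1821 (right), in FPKM, with 1 point per library coloured by group. Higher sums went with higher levels of the neighbouring gene, with r of 0.872 and 0.893, and all groups are spread along both trends.

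The sums of other loci were set beside their transcripts in the same way. In 15 of the 17 loci with several predicted transcripts, the sum of the locus varied less within groups than the median of its transcripts, and in 9 it varied less than any of them. The SD on the log2(FPKM + 0.1) scale had a median of 0.529 for the sums and 1.32 for the transcripts. A sum tends to vary less than its parts on this scale, also where the parts vary independently. Annotated loci were not set beside these, so the counts are descriptions. In MSTRG.8767 the sum was 3.11 to 4.71 FPKM, although MSTRG.8767.1 and MSTRG.8767.3 were each at 0 in some libraries and above 2 FPKM in others. In MSTRG.4301 the sum was 3.31 to 5.41 FPKM, nearly all of it from MSTRG.4301.1. In contrast, MSTRG.3158 varied as a whole. Its sum was 21.1, 6.21 and 16.9 FPKM in saline, 17.8, 27.1 and 6.65 FPKM on CFA3D, and 11.3, 33.7 and 17.4 FPKM on CFA6D, so low and high libraries occurred in every group. The sums of MSTRG.10070 and MSTRG.9521 ranged from 4.57 to 13.4 FPKM and from 4.87 to 13.2 FPKM, and those of MSTRG.6175, MSTRG.1991 and MSTRG.6376 from 5.21 to 13.5, from 1.91 to 5.01 and from 2.95 to 11.5 FPKM.

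The replicates of a group differed more for predicted than for annotated lncRNAs. The SD within groups was above 1 on the log2 scale in 64 of 143 predicted lncRNAs (44.8%) and in 6.29% of annotated ones, and above 2 in 30. At the same time it was under 0.25 in 38 (26.6%), against 21.9% of annotated transcripts. At means of 2 to 5 FPKM the median SD was 0.479 for 53 predicted and 0.241 for 319 annotated lncRNAs, and above 5 FPKM it was 0.900 for 27 and 0.253 for 104. The difference was thus present at matched levels. The highest value of a predicted lncRNA fell most often in CFA6D replicate 5 (32 of 143) and CFA3D replicate 2 (24), and least often in CFA3D replicate 1 (4). For annotated transcripts these shares were 10.4%, 14.3% and 8.32%, against 22.4%, 16.8% and 2.80% for the predicted lncRNAs.

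**Figure D4:**
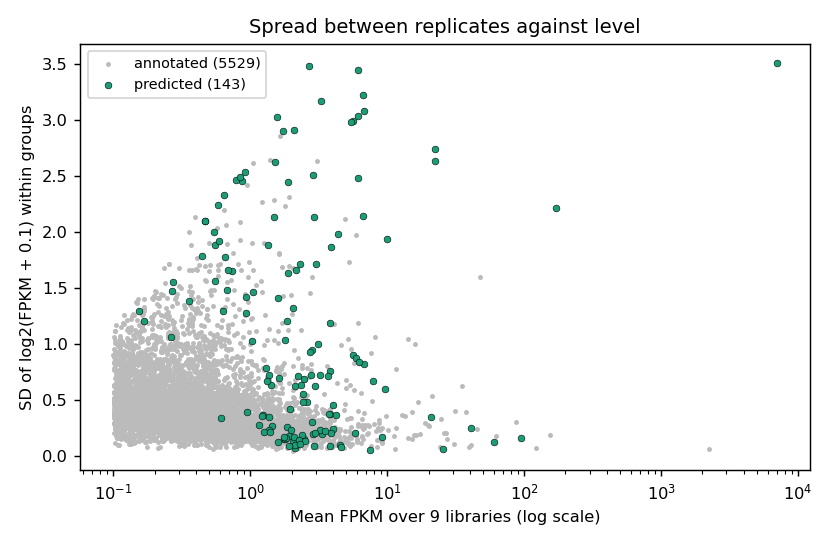
SD of log2(FPKM + 0.1) within groups against the mean FPKM over 9 libraries (log scale), with 1 point per lncRNA transcript, predicted (green, 143) or annotated (grey, 5529). Many predicted lncRNAs lie above an SD of 1, at means where few annotated ones do, and MSTRG.2605.1 stands at the far right.

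Whether CFA changed the predicted lncRNAs was tested over the whole lncRNA table of 5672 transcripts. To be called, a transcript needed p under 0.05 before adjustment and a log2 fold change of 1 or more in size. The p cutoff is that of the study, and the fold minimum was added here. For each transcript limma draws the spread toward that of all lncRNAs of like level, most of them annotated and less variable. For predicted lncRNAs of wide spread the SE and p are therefore smaller than their own replicates would give, and for narrow spreads larger. The shares of calls beside those of all lncRNAs carry this limit, and a fit of the predicted lncRNAs alone was not run. No predicted lncRNA reached an adjusted p under 0.05 in limma in any of the 4 comparisons (smallest 0.951, 0.579, 0.704 and 0.753 for CFA3D, CFA6D and both days against saline and for CFA6D against CFA3D), while 8, 6, 9 and 6 of 143 had an unadjusted p under 0.05, beside 4.02%, 6.73%, 5.38% and 5.84% of all lncRNAs tested. Of all lncRNAs, an adjusted p under 0.05 was reached by 0.0176%, a single transcript that is no predicted one, between the days. CFA3D and CFA6D were compared with the same saline libraries, and in bulk tissue fewer cells of a type and less RNA per cell cannot be told apart. In all, 10 predicted lncRNAs were called in at least 1 comparison, and 1, MSTRG.6753.2, on each of the 2 days against saline.

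On CFA3D 5 of 143 predicted lncRNAs (3.50%) were called, all higher, beside 1.75% of all lncRNAs tested (0.705% higher and 1.04% lower). The single direction on CFA3D depended on the libraries, with 3 higher and 3 lower without saline replicate 2, 3 and 2 without CFA3D replicate 1, 3 and 1 without CFA3D replicate 2 and 4 and 1 without CFA3D replicate 3. On CFA6D 3 (2.10%) were called, 2 higher and 1 lower, beside 2.52% of all (1.22% higher and 1.3% lower). The summed neutrophil markers were higher and the summed satellite glia markers lower in all CFA6D libraries than in all saline libraries, and their part in the CFA6D differences was not tested. For both days together 6 (4.2%) were called, 5 of them higher, beside 1.62% of all (0.846% higher and 0.776% lower). Between the days 5 (3.50%) were called, 2 higher and 3 lower on CFA6D, beside 2.22% of all (1% higher and 1.22% lower). The summed pituitary and neutrophil markers were higher in all CFA6D than in all CFA3D libraries, and the summed satellite glia markers were lower. The part of these tissues in the differences between the days was not tested. The median log2 fold change of the predicted lncRNAs was 0.05, 0.09, 0.09 and -0.04 in these comparisons, and that of all lncRNAs 0.02, -0.01, -0.0028 and -0.02. Groups that did not overlap were found for 11 predicted lncRNAs on CFA3D (7.69%, beside 8.27% of all), for 14 on CFA6D (9.79%, beside 11.8%), for 2 with both days (1.40%, beside 2.38%) and for 14 between the days (9.79%, beside 12.1%).

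**Figure D5:**
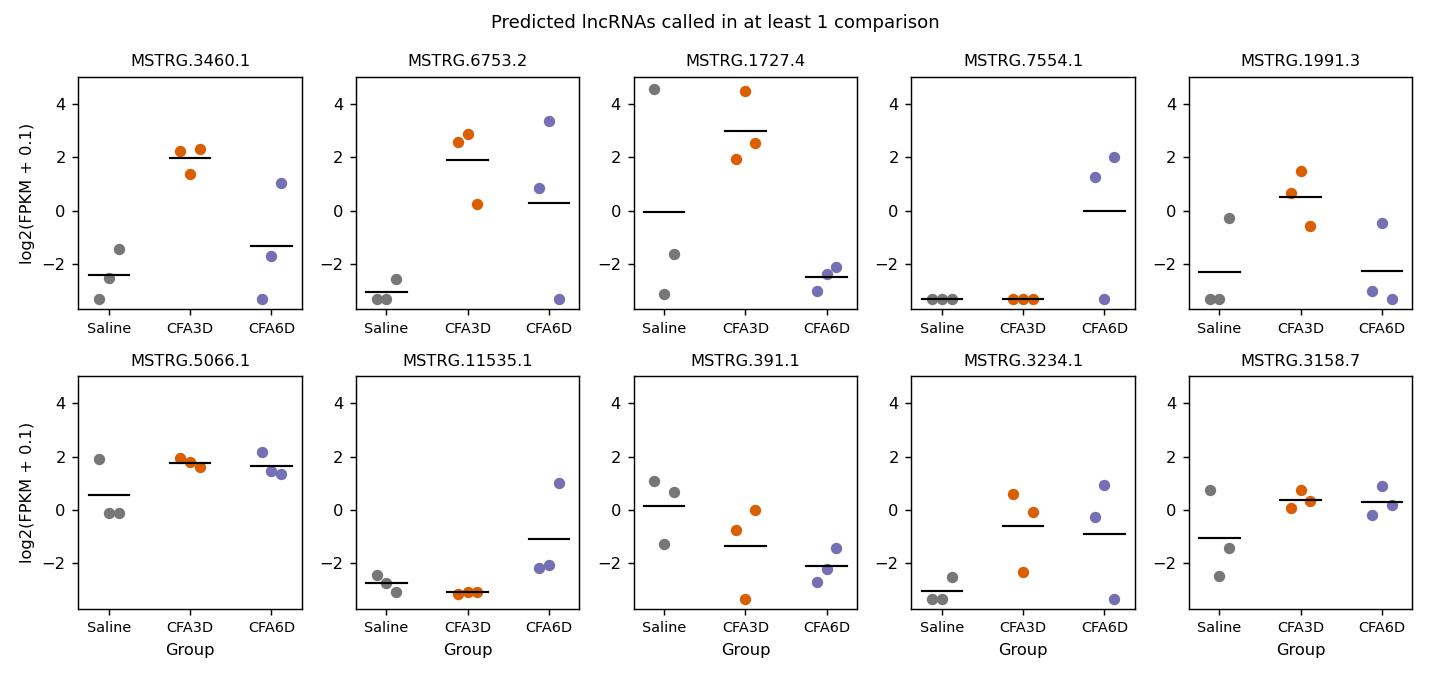
Level of each of the 10 predicted lncRNAs called in at least 1 comparison, as log2(FPKM + 0.1), with 1 point per library, by group, and the group mean as a line. The lowest points are libraries at 0 FPKM, and for most of the 10 the points of a group span several log2 units.

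MSTRG.3460.1 and MSTRG.6753.2 were also measured by RT-PCR in the study, which was not analysed here. MSTRG.3460.1 had the smallest p of the predicted lncRNAs on CFA3D and was called there and, as lower on CFA6D than on CFA3D, between the days. It was at 0, 0.0724 and 0.271 FPKM in saline, at 4.57, 2.52 and 4.80 FPKM on CFA3D, and at 0, 0.211 and 1.94 FPKM on CFA6D. All CFA3D values lay above all others, whereas CFA6D overlapped saline. The difference from saline was 4.40 on CFA3D (SE 0.95, limma, adjusted p = 0.951) and 1.10 on CFA6D (SE 0.95, limma, adjusted p = 0.890). From CFA3D to CFA6D it fell by 3.29 (SE 0.95, limma, adjusted p = 0.753). For both days together it was 2.75 (SE 0.82, limma, adjusted p = 0.714). The calls on CFA3D, for both days and between the days were kept when any 1 of the 9 libraries was left out. The CFA6D difference turned to -0.07 without CFA6D replicate 6, the library with the most neutrophil markers, whose part was not tested. By table order it lay on chromosome 14 between 19271274 and 19504718.

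MSTRG.6753.2 was the one called on both days. It was at 0, 0 and 0.0710 FPKM in saline, at 5.89, 7.27 and 1.08 FPKM on CFA3D, and at 1.68, 10.1 and 0 FPKM on CFA6D. CFA3D did not overlap saline, but CFA6D replicate 6 was at 0. The difference was 4.97 on CFA3D (SE 1.41, limma, adjusted p = 0.998) and 3.35 on CFA6D (SE 1.41, limma, adjusted p = 0.714). For both days it was 4.16 (SE 1.22, limma, adjusted p = 0.714). The calls on CFA3D and for both days were kept without any 1 library (4.48 to 5.80 and 3.39 to 5.06). The CFA6D call was lost without saline replicate 1, 2 or 3, CFA3D replicate 1 or 2, or CFA6D replicate 4 or 5 (1.82 to 5.15 over the 9 fits). It was kept in 2 of 8 other settings of the fit, and the CFA3D call in 8 of 9. Its partner MSTRG.6753.1 was at 14.02, 7.21 and 8.09 FPKM in saline, at 9.41, 16.8 and 6.54 FPKM on CFA3D and at 4.71, 9.58 and 10.1 FPKM on CFA6D. With both transcripts summed, the locus differed by 0.58 on CFA3D (limma, adjusted p = 0.998) and by 0.20 on CFA6D (limma, adjusted p = 0.960), and neither was called.

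MSTRG.6376.2, which the study placed in its network of RNAs that may compete for microRNAs, was above 0 in saline replicate 3 only. On the fitted scale it was lower on each CFA day by the same 1.88 (SE 1.28, limma, adjusted p = 0.998 on CFA3D and 0.863 on CFA6D), and without saline replicate 3 it was at 0 in all remaining libraries. The sum of its locus differed by 0.34 and 0.04 in the opposite direction. Saline replicate 3 was also the library with the highest sum of pituitary markers, and the part of that tissue in this value was not tested.

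A further 3 predicted lncRNAs were called higher on CFA3D. MSTRG.1991.3 was at 0, 0 and 0.719 FPKM in saline, at 1.48, 2.71 and 0.565 FPKM on CFA3D and at 0.0228, 0.618 and 0 FPKM on CFA6D. Saline replicate 3 lay above CFA3D replicate 3, so the groups overlapped, and the difference was 2.83 (SE 1.00, limma, adjusted p = 0.998). It was lost without saline replicate 1 or 2 or CFA3D replicate 2 (2.33 to 3.84 over the 9 fits), and the locus sum differed by 0.27 (limma, adjusted p = 0.998).

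MSTRG.3234.1 was at 0, 0 and 0.0756 FPKM in saline, at 1.42, 0.0992 and 0.842 FPKM on CFA3D, and at 0.735, 1.79 and 0 FPKM on CFA6D. The groups did not overlap on CFA3D, by a small margin, and did on CFA6D. The difference was 2.45 on CFA3D (SE 1.05, limma, adjusted p = 0.998) and 2.16 on CFA6D (SE 1.05, limma, adjusted p = 0.766). For both days it was 2.31 (SE 0.91, limma, adjusted p = 0.912), a call kept in 2 of the 9 fits with 1 library left out. The CFA3D call was lost without each of the saline libraries in turn, CFA3D replicate 1 or 3, or CFA6D replicate 4 (1.84 to 3.31 over the 9 fits). It was kept in 6 of 8 other settings of the fit, and the call for both days in 5 of 7.

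MSTRG.5066.1 was at 3.64, 0.821 and 0.821 FPKM in saline, at 3.70, 3.37 and 2.94 FPKM on CFA3D, and at 4.36, 2.65 and 2.46 FPKM on CFA6D. Of the called transcripts it had the most even levels on CFA, but saline replicate 1 was as high as the CFA libraries. The difference was 1.22 on CFA3D (SE 0.49, limma, adjusted p = 0.998), 1.10 on CFA6D (SE 0.49, limma, adjusted p = 0.738) and 1.16 for both days (SE 0.43, limma, adjusted p = 0.902). The call on both days was lost without saline replicate 2 or 3, at 0.82 each. The CFA3D call was lost without either of these, at 0.88 each, and without each CFA3D library in turn. It was kept in 6 of 9 other settings of the fit, and the call for both days in 7 of 8.

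With both days against saline, MSTRG.3158.7 was also called. It was at 1.58, 0.0793 and 0.269 FPKM in saline, at 0.938, 1.58 and 1.17 FPKM on CFA3D and at 0.768, 1.78 and 1.04 FPKM on CFA6D, so that only 2 of the 3 saline libraries were low. The difference was 1.40 (SE 0.60, limma, adjusted p = 0.913) and was kept in 2 of the 9 fits with 1 library left out. The call was lost without saline replicate 2 or 3, each CFA3D library in turn, or CFA6D replicate 5 or 6 (0.69 to 2.30 over the 9 fits). The smallest difference, 0.69, came without saline replicate 2, where this transcript was lowest. That library also had the most muscle and fat markers, whose part was not tested. The locus sum differed by 0.35 (limma, adjusted p = 0.965).

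MSTRG.391.1 was the only predicted lncRNA called lower against saline. It was at 2.03, 0.316 and 1.48 FPKM in saline, at 0.498, 0 and 0.896 FPKM on CFA3D, and at 0.0552, 0.116 and 0.275 FPKM on CFA6D. CFA6D lay below all saline values and CFA3D overlapped them. The log2 difference was -2.27 on CFA6D (SE 0.87, limma, adjusted p = 0.709) and -1.89 for both days (SE 0.75, limma, adjusted p = 0.912). The CFA6D call was lost without saline replicate 1 or 3 or CFA6D replicate 4 or 5 (-2.98 to -1.80 over the 9 fits), and that for both days without the same libraries (-2.61 to -1.40 over the 9 fits). Each of these calls was kept in 4 of 7 other settings of the fit.

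MSTRG.7554.1 was listed at 0 in all saline and CFA3D libraries, and at 2.27, 0 and 3.89 FPKM on CFA6D. It was absent from CFA6D replicate 5. It passed the filter of a mean of 0.1 FPKM only through CFA6D, the group called higher, so its calls cannot serve as support. No fold is given against groups at 0, and the fitted difference, 3.30 (SE 1.12, limma, adjusted p = 0.656 against saline and 0.821 against CFA3D), depends on the pseudocount. Both calls were lost without CFA6D replicate 4 or 6, at 2.66 and 2.28.

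MSTRG.11535.1 and MSTRG.1727.4 were called between the days only. MSTRG.11535.1 was at 0.0857, 0.0489 and 0.0198 FPKM in saline, at 0.0139, 0.0202 and 0.0181 FPKM on CFA3D, and at 0.122, 0.136 and 1.91 FPKM on CFA6D. Its CFA6D values lay above all others, but those of replicates 4 and 5 were near the worth of a few read pairs in 1 kb. All CFA3D values lay under the worth of 1 read pair in 1 kb. It passed the filter of a mean of 0.1 FPKM only through CFA6D, the group called higher, so its call cannot serve as support. The difference of CFA6D from CFA3D was 2.01 (SE 0.75, limma, adjusted p = 0.821), and 0.97 without CFA6D replicate 6. The fit without that library kept the filter of all 9 libraries. The call was also lost without each CFA3D library in turn.

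MSTRG.1727.4 was at 23.4, 0.015 and 0.223 FPKM in saline, at 3.68, 22.0 and 5.76 FPKM on CFA3D, and at 0.0249, 0.0923 and 0.133 FPKM on CFA6D. CFA6D lay below CFA3D in every library, while saline covered the range of both. The log2 difference of CFA6D from CFA3D was -5.47 (SE 1.65, limma, adjusted p = 0.787) and its call was kept without any 1 library (-6.0 to -4.73). The sum of the locus differed by -0.10 (limma, adjusted p = 0.972), and other transcripts of MSTRG.1727 were high where MSTRG.1727.4 was low.

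MSTRG.1303.1 and MSTRG.9966.2 were higher in every CFA library than in all saline libraries, by less than the fold required for a call. MSTRG.1303.1 was at 2.32, 2.62 and 2.54 FPKM in saline, at 4.08, 4.32 and 3.01 FPKM on CFA3D and at 4.32, 3.61 and 3.40 FPKM on CFA6D. The difference for both days was 0.57 (SE 0.15, limma, adjusted p = 0.704), equal to the smallest adjusted p of all lncRNAs in that comparison, and its replicates were closer than those of any called transcript. MSTRG.9966.2 was at 8.64, 7.83 and 6.27 FPKM in saline, at 10.2, 8.93 and 9.80 FPKM on CFA3D and at 11.5, 9.25 and 9.88 FPKM on CFA6D, a difference of 0.39 (SE 0.13, limma, adjusted p = 0.878). Both transcripts were named after their values were seen. MSTRG.12036.1 alone was at 0 in all libraries of 1 group (saline) and above 0 in all of another. On CFA3D it was at 0.0175, 2.37 and 0.0129 FPKM and on CFA6D at 0, 0.0173 and 0.0124 FPKM, so that only CFA3D replicate 2 exceeded the worth of 1 read pair in 1 kb.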

How the data were processed

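RNA of TG was sequenced after rRNA depletion, and the study's methods describe trimming with Trimmomatic, mapping to GRCm38 and quantification in CLC Genomics Workbench. The submitters' processing notes name Bowtie 0.12.2 and build mm8, so the aligner behind the predicted transcripts is uncertain, and the assembler is not given in the sources used here. The authors deposited FPKM values per transcript, and 0 sample columns were left out. The depth was estimated from the step of low values times GENCODE length.

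log2(FPKM + 0.1) of transcripts averaging 0.1 FPKM or more was compared in limma 3.58.1 (R 4.3.3) with all 9 libraries, a trended prior and Benjamini-Hochberg adjustment over all 5672 lncRNAs, and the fit was tested on simulated data. Replicates are pools of 3 mice. With 3 against 3, exact permutation p-values cannot go below 0.1. Python 3.11.15 with pandas 2.3.3 and scipy 1.17.1 and blast 2.17.0 served the other steps.

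The predicted lncRNAs, the marker lists and the tests were chosen with earlier results of these data known. Transcripts named were the 10 most abundant, all called, those named in the study, the 5 largest in excess and in library ratio, those at 0 in 1 group and present throughout another, those under the filter, and loci of 3 or more. The alternatives were other pseudocounts, filters and scalings, locus sums, a replicate block and leaving out libraries.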

Additional observations from a re-analysis of the deposited data

Results flagged for a closer look

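In the test of CFA6D against CFA3D, 5 of 143 predicted lncRNAs (3.50%) were called, beside 2.22% of all lncRNAs tested. Their adjusted p in limma was 0.753 or higher, so a differing response is not shown after adjustment. The log2 difference of CFA6D from CFA3D was -5.47 for MSTRG.1727.4, -2.80 for MSTRG.1991.3 and -3.29 for MSTRG.3460.1, and it was 3.30 for MSTRG.7554.1 and 2.01 for MSTRG.11535.1. MSTRG.7554.1 and MSTRG.11535.1 passed the mean filter only through CFA6D libraries. MSTRG.1727.4 and MSTRG.3460.1 kept the call without any 1 library, but the saline values of MSTRG.1727.4 spanned both days and its locus sum differed by -0.10. MSTRG.1991.3 lost it without CFA3D replicate 2 or CFA6D replicate 4 or 6 (-3.69 to -2.27 over the 9 fits), and its locus sum differed by 0.05. Groups of 3 libraries were not screened for single outlying samples.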

How the results depend on the processing

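Calls depended on the settings. From 5 called predicted lncRNAs on CFA3D, 3 on CFA6D, 6 for both days and 5 between the days, a pseudocount of 1 gave 3, 1 and 2 for the first 3 comparisons. A mean of at least 1 FPKM gave 3, 0, 3 and 2. The 0 stands beside the 3 called on CFA6D at a mean of at least 0.1 FPKM. In that limma fit, 6 had an unadjusted p under 0.05 when no fold minimum was set. No filter gave 3, 1 and 3 for the first 3 comparisons. Without a fold change minimum 8 and 6 passed on CFA3D and CFA6D, median-ratio scaling gave 5 on CFA6D, and locus sums gave 3 on CFA3D and 3 between the days. Leaving out 1 library gave 4 to 6 on CFA3D, of which up to 3 were lower, 2 to 10 on CFA6D, 4 to 12 for both days and 2 to 7 between the days. The highest counts, 10 and 12, came without saline replicate 2, which made 7 and 8 of them lower, and 5 were called on CFA6D without saline replicate 3. Without CFA6D replicate 6, 2 remained between the days by count, and without both saline replicate 3 and CFA6D replicate 6, a setting chosen after seeing the data, 3 were called. The cause was not tested.

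Of the log2 differences, 4 reversed. MSTRG.6376.2 became 0.337 on CFA3D and 0.0391 on CFA6D and MSTRG.1991.3 0.0531 between the days with locus sums, and MSTRG.3460.1 on CFA6D ranged from -0.0733 without CFA6D replicate 6 to 2.10 without CFA6D replicate 4. Without MSTRG.2605.1 the excess of the lncRNA total of CFA6D replicate 4 went from 61686 to -191.3 FPKM, while leaving out any other predicted lncRNA kept it between 61576 and 61711, and leaving out Malat1 gave 61703. The share of predicted lncRNAs without MSTRG.2605.1 was 12.6% in saline replicate 1, 8.02% in CFA3D replicate 1, 10.6% in CFA3D replicate 3 and 10.2% in CFA6D replicate 4. At a minimum of 0.1 FPKM 92 rather than 99 predicted lncRNAs were detected in all libraries.

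Deviations from the group mean of saline and CFA3D libraries with the same replicate number correlated at 0.03, -0.06 and 0.05. For different numbers the correlations were -0.09 to 0.06. These values thus showed no pairing by number, but with 3 libraries per group they cannot exclude one. With the replicate block 6 predicted lncRNAs were called on CFA3D. FPKM without transcript lengths leaves the reads behind a predicted lncRNA unknown, so its counting error could not be given.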
